A study of Mus musculus with 24 samples.

Results

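The blood clotting cascade and the plasminogen system were followed through 9 genes in injured mouse brain, chosen by symbol, with earlier results of these data known: the clotting factors F3, F10, F5 and F13a1, the anticoagulants Thbd and Tfpi, and the plasminogen activation genes Plat, Plau and Plaur. They are 9 of the 36333 genes in the expression table. RNA sequencing was made from 24 male C57BL6N mice, 1 library per mouse, 5 days after controlled cortical impact (CCI), a model of traumatic brain injury (TBI) in which a piston deforms the exposed right parietal cortex. The labels give an age of 12 to 16 weeks and cortex as the tissue, whereas the methods name the C57BL/6JRj strain and describe a brain quadrant that also held striatum, dorsal hippocampus and thalamus.

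Vehicle mice (n = 5) had CCI, control chow and placebo injections. PLX3397 mice (n = 5) had CCI and chow with 290 mg/kg PLX3397, an inhibitor of colony stimulating factor 1 receptor on which microglia depend, from 90 min after injury. Anakinra mice (n = 5) had CCI and subcutaneous injections of 100 mg/kg Anakinra, an antagonist of interleukin 1 receptor 1, at 5 min, 24 h, 48 h and 72 h. By the methods, mice without PLX3397 had vehicle chow and mice without Anakinra had saline placebo injections. PLX3397+Anakinra mice (n = 5) had CCI and both drugs, and Sham mice (n = 4) had anesthesia, a skin incision without craniotomy, and vehicle. The sham group therefore differs from vehicle in the opening of the skull as well as in the impact. Of all animal numbers, those of the vehicle mice alone end in the letter B. What the letter marks is not given in the sources used here, and whatever it marks cannot be told apart from the vehicle treatment.

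Clotting begins when tissue factor, encoded by F3, meets factor VII of the blood. The pair activates factor X (F10), which with its cofactor factor V (F5) turns prothrombin into thrombin, and thrombin cuts fibrinogen to fibrin and activates factor XIII, whose catalytic A subunit (F13a1) crosslinks the clot and is also made by macrophages and platelets. Thrombomodulin (Thbd) and tissue factor pathway inhibitor (Tfpi) hold the cascade back, and the tissue-type (Plat) and urokinase-type (Plau) plasminogen activators, the latter bound by its receptor (Plaur), generate plasmin, which dissolves fibrin and cuts other matrix proteins.

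Expression was given in TPM, which corrects for gene length and sets each library to the same total. The methods also say that the software names this unit CPM, which would not be corrected for length. Over 5172 genes listed at 0 in some but not all libraries, the smallest value above 0 was lower for longer genes (Spearman's rho across genes -0.53). Its median was 0.14 in the shortest 25% of these genes and 0.0413 in the longest, whereas reads scaled by library size alone would give every gene of a library the same step. Comparisons of level between genes rest on the values being length-corrected. Differences were tested with limma on log2(TPM + 1), and a gene was called where the p adjusted over all 17267 genes tested lay below 0.05. A difference given as log2 is on that scale, which understates the change of low genes, and a ratio is one of group mean TPM. F10 averaged 0.479 TPM over the 24 libraries, under the 0.5 TPM needed for a test, so that 8 of the 9 genes were tested. The replicates of a group were separate mice. In these bulk samples fewer cells of a type and less RNA per cell cannot be told apart.

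One vehicle library, of mouse J17B, lay at the low end of its group. Its summed level of 10 markers of border and lesion macrophages was 344 TPM against 509 to 650 TPM in the other vehicle mice. Its sums of monocyte and neutrophil markers (62.5 TPM) and fibroblast markers (113 TPM) were also the lowest of its group. Vehicle mouse J20B was next, with 94.6 and 144 TPM, whereas the remaining vehicle mice had 170 to 179 and 592 to 722 TPM. J17B also had the lowest F13a1, F10, Plau, Plaur, F3, Tfpi and Plat of the vehicle mice, but not the lowest F5 or Thbd. Its sums of microglial (1519 TPM), endothelial (322 TPM) and mural cell markers (123 TPM) were the lowest of the group as well. Its sum of neuronal markers (4503 TPM) was the highest. Results that change without J17B are given below with and without it. The neuronal gene Snap25 was at 2868 ± 106.5 TPM (SD, n = 4) in sham and 1739 ± 177 TPM (SD, n = 5) in vehicle mice. Its presence does not tell cortex from the other brain regions named.

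After TBI, 7 of the 8 tested genes were higher in vehicle than in sham mice, and F5 was not called. Among all genes tested, 54.3% were called in this comparison and 26.6% were higher. The rise was steepest for F13a1, the clot-crosslinking subunit, followed by Plau and Plaur, and it was under 2-fold for F3, Plat and Thbd. Values of vehicle and sham mice did not overlap for F13a1, Plau, Plaur, Tfpi, F3, Plat and the untested F10, whereas those of Thbd and F5 did. Over all genes tested, 21.7% were higher without overlap. The median difference over the 8 genes was 0.81 (log2), against -0.01 over all genes tested.

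**Figure D1:**
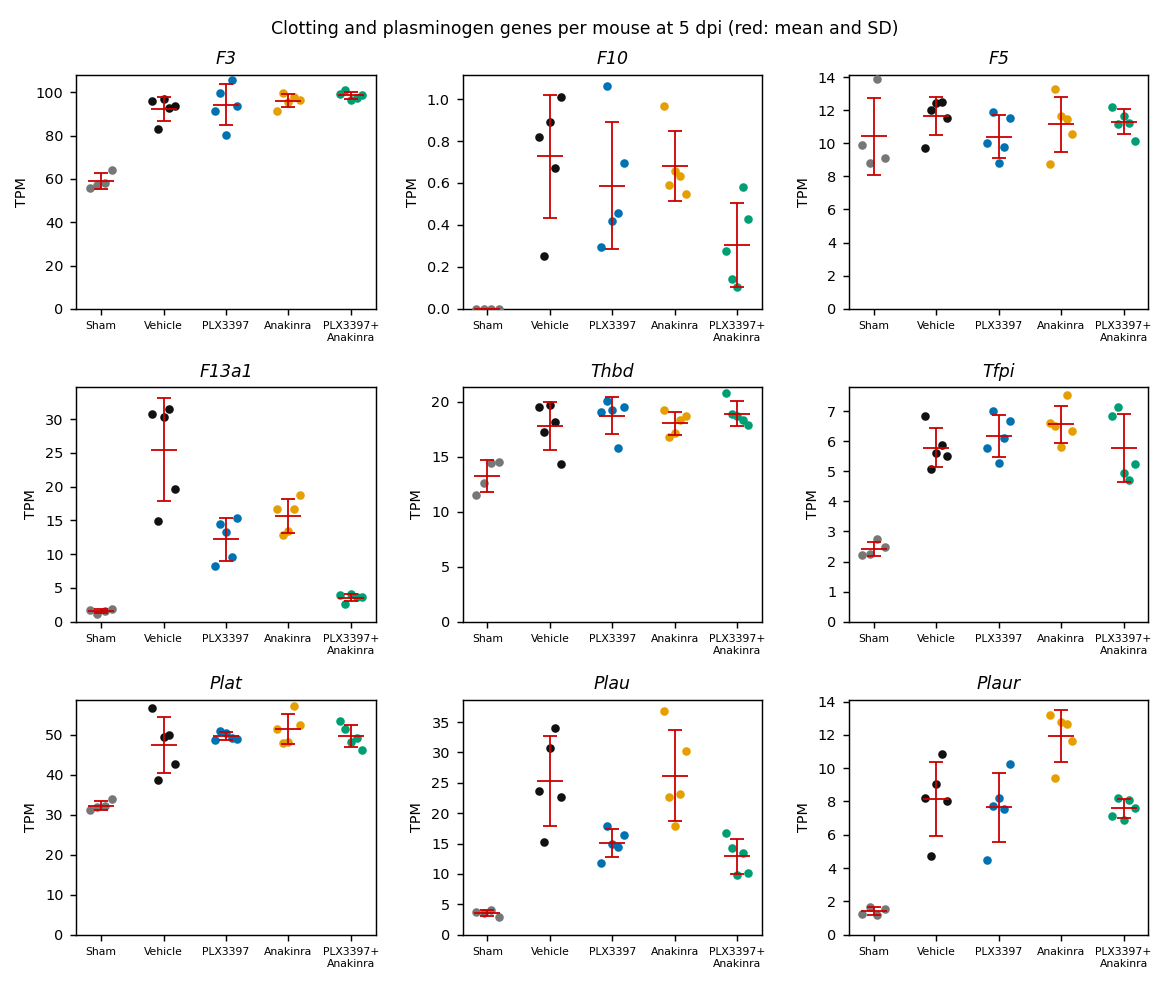
TPM of the 9 genes (vertical axes, each from 0) in every mouse of the 5 groups, with group mean and SD in red. F13a1 falls from 25.5 TPM in vehicle to 3.57 TPM in PLX3397+Anakinra mice, and Plau is lower in both groups that had PLX3397. F3, Plat, Thbd and Tfpi are not called against vehicle in any drug group. All genes but F5 lie above every sham mouse in each drug group.

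F13a1 is encoded on chromosome 13 (36867178 to 37050244, minus strand, GRCm38) and overlaps the antisense genes Gm49144 and Gm30489 in exons. The latter averaged 0.0660 TPM, and since the strand setting of the counting is not given in the sources used here, reads of the overlap cannot be assigned with certainty. The 250 bases before its first start are shown here because F13a1 carries the largest drug effects of the 9 genes. Sequences are from RefSeq (GRCm38.p6), 5′ to 3′ on the gene's strand, with matches to 5 motifs in capitals, searched on both strands: the PU.1 core (GAGGAA), AP-1 (TGANTCA), KLF (CACCC), NF-kappaB and the interferon-response core.
F13a1, chr13:37050245-37050494, minus strand: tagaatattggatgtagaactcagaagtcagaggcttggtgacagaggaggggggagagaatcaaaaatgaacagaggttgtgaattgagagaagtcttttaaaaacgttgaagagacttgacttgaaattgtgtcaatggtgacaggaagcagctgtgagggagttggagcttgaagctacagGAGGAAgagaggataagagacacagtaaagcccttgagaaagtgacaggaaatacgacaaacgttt
One match to the PU.1 core, the site of a transcription factor of myeloid cells, lies at bases -66 to -61 from the start. The same core occurs in 23.3% of 32851 RefSeq promoters of this length, and a match is no evidence of binding. A second F13a1 start in the table (window chr13:37049214-37049463) had no PU.1 core and 2 KLF matches on the opposite strand.

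The sham mice had F13a1 at 1.66, 1.17, 1.53 and 1.88 TPM. The vehicle mice had 30.8, 14.98, 30.4, 31.6 and 19.7 TPM. Every vehicle mouse was above every sham mouse, with a ratio of 16.3 and a log2 difference of 3.32 ± 0.19 (SE, adjusted p = 2.2e-13, limma). With PLX3397 the values were 8.21, 14.5, 13.3, 9.59 and 15.4 TPM, and with Anakinra they were 16.6, 12.8, 13.4, 16.7 and 18.8 TPM. The 5 mice given both drugs had 3.93, 2.64, 4.06, 3.62 and 3.61 TPM, below every other injured mouse and above every sham mouse.

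F13a1 stood at 0.479 of the vehicle mean with PLX3397, 0.615 with Anakinra and 0.140 with both drugs. It fell by 0.98 ± 0.18 (log2, SE, adjusted p = 4.5e-04, limma) with PLX3397 alone, where the lowest vehicle mouse overlapped with the highest PLX3397 mouse. With both drugs it fell by 2.49 ± 0.18 (SE, adjusted p = 2.5e-10, limma), with no overlap, as 6.62% of all genes were. The combination was also lower than PLX3397 alone (-1.504 on the log2 scale, adjusted p = 5.7e-05, limma) and Anakinra alone (-1.86, adjusted p = 3.2e-08, limma), again with no overlap, where 0.764% and 7.26% of all genes were lower without overlap. The combination still differed from sham (0.83, 95% interval 0.45 to 1.22, adjusted p = 9.9e-04, limma).

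With Anakinra alone the F13a1 difference from vehicle was -0.63 (95% interval -0.99 to -0.26) at an unadjusted p of 0.0017 and an adjusted p of 0.135 (limma), so it was not called. Without vehicle mouse J17B it was -0.79 with an adjusted p of 0.042 (limma), which is a call. In the order of group means, sham, PLX3397+Anakinra, PLX3397, Anakinra and vehicle, the neighbours PLX3397 and Anakinra (-0.36, adjusted p = 0.263, limma) and Anakinra and vehicle were not told apart. Whether the drugs together do more than the sum of their log2 effects was tested as an interaction, which came to -0.88 (95% interval -1.40 to -0.36) for F13a1 with an unadjusted p of 0.0018 and an adjusted p of 0.367 (limma). No gene of the 17267 had a called interaction (0%, limma), and 1395 (8.08%) had an unadjusted p below 0.05.

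Set against the mean rise from sham to vehicle, 23.9 TPM for F13a1, 44.5% ± 13.2 (SD, n = 5) of the rise was left with PLX3397, 59.0% ± 10.5 with Anakinra and 8.41% ± 2.32 with both. For Plau, 53.0% ± 10.5 was left with PLX3397, 104% ± 34.2 with Anakinra and 43.1% ± 13.3 with both. Plaur stood at 92.2% ± 30.5, 155.5% ± 22.7 and 91.4% ± 8.48 of its rise. F3 stood at 105% to 118% of its rise in the 3 drug groups, and Plat, Thbd and Tfpi at 99.5% to 126%. These shares describe the same vehicle and sham mice in every group and were not tested.

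**Figure D2:**
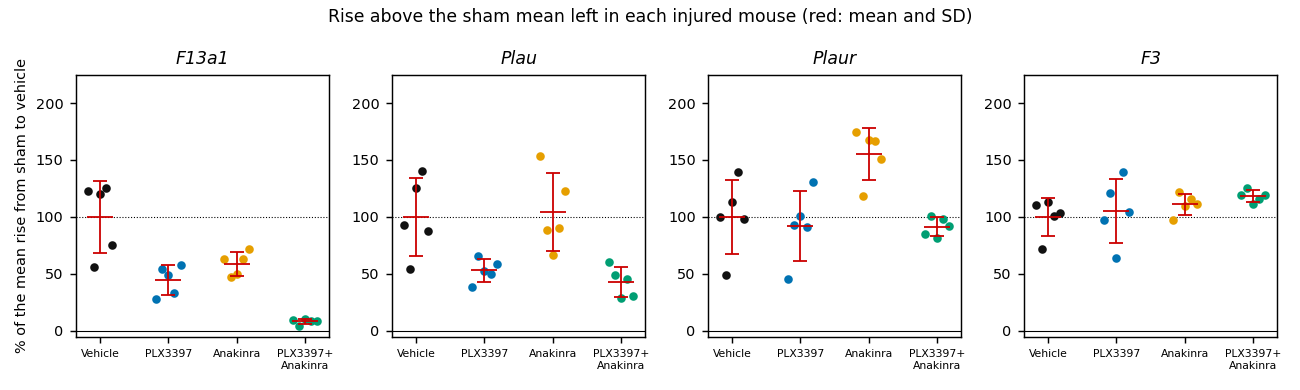
Share of the mean rise from sham to vehicle that was left in each injured mouse, in %, for F13a1, Plau, Plaur and F3 (points are mice, red marks are group means and SD, the dotted line is 100% and the solid line is 0%, the sham mean). F13a1 drops to 8.41% with both drugs, Plau to 43.1%, and F3 stays above 100% on average.

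F3 (chromosome 3, 121723537 to 121735052, plus strand) encodes tissue factor, which astrocytes and cells around vessels make. It was by level the first of the 9 genes in sham mice, at 55.9 to 64.2 TPM. Its promoter is shown because the gene rose with injury in every group and, unlike F13a1, was not called lower than vehicle in any drug group.
F3, chr3:121723287-121723536, plus strand: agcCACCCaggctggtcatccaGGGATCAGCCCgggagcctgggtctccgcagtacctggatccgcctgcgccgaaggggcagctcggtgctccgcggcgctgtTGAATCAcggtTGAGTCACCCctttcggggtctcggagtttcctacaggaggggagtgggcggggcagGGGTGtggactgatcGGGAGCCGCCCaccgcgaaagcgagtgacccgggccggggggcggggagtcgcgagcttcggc
Motif matches include 2 of AP-1, at -146 to -140 and -135 to -129, the second sharing a base or more with a KLF match. An AP-1 match occurs in 6.75% of the promoters, an NF-kappaB match in 45.8%, a KLF match in 52.0% and an interferon-response core, absent from these letters, in 2.98%.

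In vehicle mice F3 lay at 83.0 to 97.0 TPM, above all sham mice, with a log2 difference of 0.64 ± 0.06 (SE, adjusted p = 1.2e-09, limma). Means with PLX3397, Anakinra and both were 94.3 ± 9.47, 96.2 ± 3.02 and 98.6 ± 1.77 TPM (SD, n = 5 each) against 92.5 ± 5.57 TPM in vehicle. None of these drug groups was told apart from vehicle. The differences were 0.02 (95% interval -0.09 to 0.14) with PLX3397, 0.06 (-0.06 to 0.17) with Anakinra and 0.09 (-0.02 to 0.21) with both.

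F10 (chromosome 8, 13037308 to 13056676) was listed at 0 in all 4 sham libraries. The vehicle mice had 0.818, 0.251, 0.890, 0.672 and 1.01 TPM, and the PLX3397 mice 0.296, 1.06, 0.420, 0.458 and 0.693 TPM. Anakinra mice had 0.967, 0.588, 0.657, 0.634 and 0.548 TPM. Mice given both drugs had 0.275, 0.143, 0.102, 0.581 and 0.426 TPM, of which 2 lay below every other injured mouse. F10 was thus above 0 in every injured library and listed at 0 in every sham library. With the depth unknown, a listed 0 does not show that the transcript was absent. The share of all genes with this pattern was not counted.

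When all 28322 genes above 0 were tested, F10 was higher in vehicle than in sham (adjusted p = 6.1e-05, limma), as were 16.8% of these genes. It was also higher than sham with PLX3397 (adjusted p = 6.3e-04, 13.6% of genes higher, limma), with Anakinra (adjusted p = 9.8e-05, 15.7%, limma) and with both drugs (adjusted p = 0.048, 12.1%, limma), the last in 7 of 24 fits that each left out 1 mouse. It was lower with both drugs than with vehicle by -0.40 on the log2 scale (adjusted p = 0.048, limma), in a comparison in which 5.61% of genes were lower. This call held in 5 of the 24 fits, with adjusted p from 0.0046 to 0.134 (limma). It was not called lower with PLX3397 (-0.12, adjusted p = 0.703, limma) or Anakinra (-0.03, adjusted p = 0.998, limma).

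F5 (chromosome 1, 164151835 to 164220277), the cofactor of factor X, lay at 8.84 to 13.9 TPM in sham and 9.74 to 12.5 TPM in vehicle mice. It was the one tested gene that did not differ over the 5 groups (adjusted p = 0.582, limma F-test), where 7 of 8 were called against 51.9% of all genes. Its difference between vehicle and sham was 0.16 (95% interval -0.07 to 0.40, adjusted p = 0.231, limma). Without sham mouse J15, the highest of its group at 13.9 TPM, it was 0.30 with an adjusted p of 0.020 (limma). An exon of F5 overlaps the opposite-strand gene Gm16548, which averaged 0.185 TPM.

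The anticoagulants rose with injury and were not called under any drug. Thbd (chromosome 2, 148404471 to 148408188), the thrombin receptor of endothelium that starts protein C activation, lay at 13.3 ± 1.45 TPM in sham (SD, n = 4) and 17.8 ± 2.20 TPM in vehicle (SD, n = 5), a log2 difference of 0.40 ± 0.08 (SE, adjusted p = 2.8e-04, limma). Its lowest vehicle mouse, at 14.3 TPM, fell between the sham mice. Tfpi (chromosome 2, 84432855 to 84476775), the inhibitor of the tissue factor complex, was at 2.21 to 2.73 TPM in sham and 5.09 to 6.84 TPM in vehicle mice, 2.39 times higher by the means (log2 0.99 ± 0.10, SE, adjusted p = 1.8e-08, limma). For Thbd the drug differences from vehicle were 0.02 to 0.09 and for Tfpi -0.01 to 0.16, with 95% intervals that all held 0 and reached no further than -0.22 and 0.36.

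Of the plasminogen activators, Plat was the more abundant in every library and Plau rose more. Plat (chromosome 8, 22757722 to 22782848) lay at 31.1 to 33.8 TPM in sham and 38.6 to 56.8 TPM in vehicle mice, a log2 difference of 0.53 ± 0.07 (SE, adjusted p = 1.3e-06, limma). In the drug groups it averaged 49.6 ± 1.01 TPM with PLX3397, 51.5 ± 3.81 TPM with Anakinra and 49.6 ± 2.84 TPM with both (SD, n = 5 each). No drug group was called against vehicle, and the 95% intervals of the 3 differences lay between -0.07 and 0.27.

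Plau (chromosome 14, 20836662 to 20843388) was at 3.72, 3.55, 4.07 and 2.88 TPM in sham mice. In vehicle mice it reached 23.7, 15.3, 30.7, 34.1 and 22.6 TPM, 7.11 times the sham mean (log2 2.49 ± 0.19, SE, adjusted p = 8.8e-11, limma). The PLX3397 mice had 11.8, 17.9, 14.9, 14.4 and 16.4 TPM. These overlapped with vehicle only through mouse J17B, and the difference was -0.67 (95% interval -1.05 to -0.29, adjusted p = 0.019, limma). Anakinra mice had 36.9, 22.7, 17.96, 23.1 and 30.3 TPM, and the mice given both drugs 16.7, 14.3, 9.87, 13.5 and 10.2 TPM. Plau was lower with both drugs than with vehicle (-0.89, 95% interval -1.27 to -0.51, adjusted p = 0.0011, limma), while its Anakinra difference was 0.06 (95% interval -0.32 to 0.44).

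The Plau call with PLX3397 alone was lost when any of 3 mice was left out, with adjusted p of 0.067 without vehicle J18B, 0.073 without vehicle J19B and 0.061 without PLX3397 J01 (limma), and its direction stayed. Adding Anakinra to PLX3397 gave a difference of -0.22 (95% interval -0.60 to 0.16, adjusted p = 0.891, limma) for Plau, which was not called, in contrast to F13a1. The difference between the 2 genes was itself not tested.

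Plaur (chromosome 7, 24460937 to 24475970, plus strand) encodes the urokinase receptor of leukocytes and other migrating cells. Its promoter is shown because, of the 6 members with an entry in the table, it was the one with matches to both the PU.1 core (at -216 to -211 and -131 to -126) and AP-1 (at -69 to -63). The window lies inside the RefSeq span of the gene, which opens further upstream, and next to the GENCODE start at 24462484. Plat, Plau and Thbd had no entry.
Plaur, chr7:24462233-24462482, plus strand: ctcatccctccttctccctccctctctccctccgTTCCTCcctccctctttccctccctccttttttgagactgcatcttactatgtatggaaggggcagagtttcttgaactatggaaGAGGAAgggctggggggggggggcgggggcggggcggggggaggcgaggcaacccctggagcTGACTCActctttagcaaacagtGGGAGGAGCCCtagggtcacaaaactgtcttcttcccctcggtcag

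The sham mice had Plaur at 1.24, 1.66, 1.17 and 1.54 TPM, and the vehicle mice at 8.20, 4.74, 9.06, 10.9 and 8.04 TPM. The ratio was 5.82 and the log2 difference 1.90 ± 0.17 (SE, adjusted p = 8.0e-10, limma). With PLX3397 the values were 4.49, 7.72, 8.22, 7.57 and 10.2 TPM and with both drugs 7.14, 8.23, 6.90, 8.07 and 7.61 TPM, within the vehicle range apart from 1 PLX3397 mouse just under it. Anakinra mice had 13.2, 9.39, 12.8, 12.7 and 11.6 TPM, and 4 of the 5 were above every vehicle mouse.

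Plaur did not differ from vehicle by a call in any drug group. The difference was -0.08 (95% interval -0.41 to 0.24) with PLX3397 and -0.06 (-0.39 to 0.27) with both drugs. With Anakinra it was 0.53 (0.20 to 0.85) with an unadjusted p of 0.0029 and an adjusted p of 0.152 (limma), and without vehicle mouse J17B 0.37 with an adjusted p of 0.293 (limma). Between drug groups, Plaur was lower with both drugs than with Anakinra (-0.58, adjusted p = 0.015, limma). A contrast added after the values were seen set PLX3397 against Anakinra, in which Plaur (-0.61, adjusted p = 0.017, limma) and Plau (-0.73, adjusted p = 0.013, limma) were lower with PLX3397. In that contrast 6.69% of all genes were called and 5.41% were lower.

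**Figure D3:**
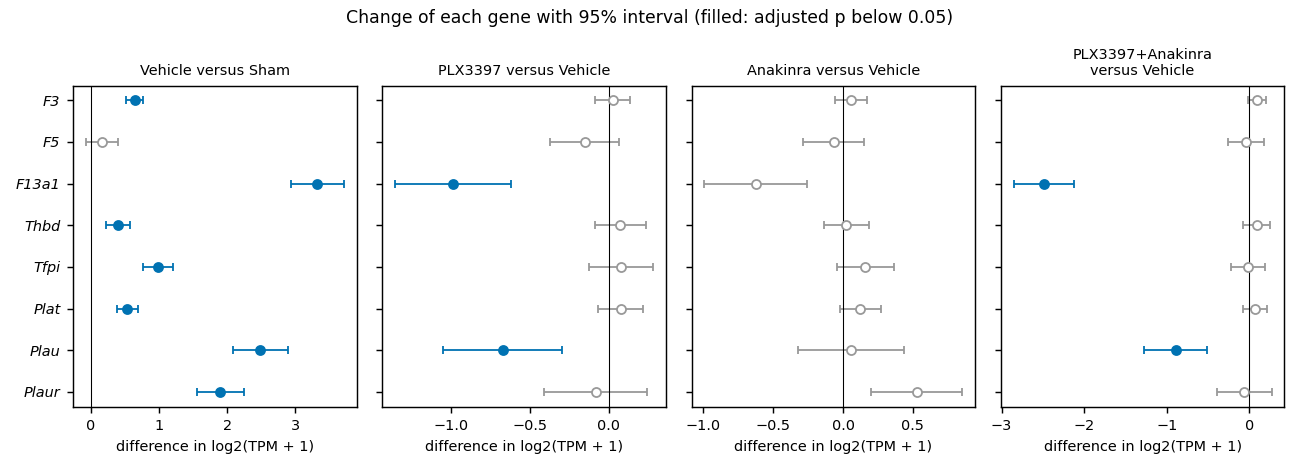
Difference in log2(TPM + 1) of the 8 tested genes in 4 comparisons, with 95% intervals from limma (filled points have an adjusted p below 0.05, and the horizontal scale differs between panels). All but F5 rise from sham to vehicle, and F13a1 and Plau are the genes called lower with PLX3397 and with both drugs, while none is called with Anakinra.

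Counted over the comparisons with vehicle, 2 of the 8 tested genes were lower with PLX3397 (F13a1 and Plau) where 9.89% of all genes were called and 6.66% were lower. With both drugs the same symbols were called, against 17.5% called and 9.6% lower among all genes. With Anakinra 0 of 8 were called by limma and 2 (F13a1 and Plaur) had an unadjusted p below 0.05, where 0.116% of all genes were called and 12.4% had an unadjusted p below 0.05. These 3 comparisons share the vehicle mice. Against PLX3397, the combination differed in 1 gene, F13a1, where 0.151% of all genes were called and 0.145% were lower, and against Anakinra in 3, F13a1, Plau and Plaur, where 12.8% were called and 8.1% were lower.

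Under rescaling of the libraries by median ratios, which left these members' calls as they were, the share of higher genes among all calls of the last comparison was 23.0% in place of 36.6%. For Anakinra against vehicle it was 45.5% in place of 60%. Each drug group still differed from sham in 7 of the 8 genes, all higher, and F5 was not called in any. Of all genes, 45.2% were called with PLX3397 against sham (22.7% higher), 54.4% with Anakinra (25.1% higher) and 38.8% with both drugs (20.7% higher). Values above every sham mouse were found for 8 of the 9 genes in each drug group, all but F5, against 18.7%, 21.3% and 16.9% of all genes with PLX3397, Anakinra and both. These comparisons share the sham mice, and Thbd, which overlapped with sham in vehicle mice, did not overlap with sham in the 3 drug groups.

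The study's own limits were an unadjusted p below 0.05, a ratio above 2 and a difference above 4 TPM, here with limma's p. By them 4 of the 8 genes changed in any comparison. F13a1, Plau and Plaur were higher in vehicle than sham, where 5.11% of all genes were, and F13a1 was lower with PLX3397 (0.932% of all genes) and with both drugs (1.55%) than with vehicle. No member passed with Anakinra against vehicle, where 0.162% of all genes were higher and 0.0174% lower. F13a1 was lower with both drugs than with PLX3397 (0.0927% of all genes), and with Plau lower than with Anakinra (1.55%). Tfpi passed in 1 comparison, higher with Anakinra than in sham (5.24% of all genes). Plau and Plaur were higher than sham with each treatment, F13a1 with PLX3397 and with Anakinra, where 3.58% (PLX3397) and 2.84% (both drugs) of all genes were higher.

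To set receptor against ligand and the activators against each other, 2 ratios within each library were formed after the values were seen. They are therefore given as a description. Exact permutation tests were also run on them, and their p-values are left out for the same reason. The level of Plaur per level of Plau was 0.325 ± 0.025 in vehicle (SD, n = 5), 0.503 ± 0.098 with PLX3397, 0.483 ± 0.147 with Anakinra and 0.610 ± 0.124 with both drugs. The vehicle mice lay between 0.295 and 0.355, and the lowest treated mouse, of the Anakinra group, at 0.358. Sham mice had 0.406 ± 0.115 (SD, n = 4) and overlapped with vehicle. With PLX3397 and with both drugs the ratio follows from the lower Plau at similar Plaur already described.

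The share of Plau in the summed TPM of Plau and Plat was 9.96% ± 1.49 in sham (SD, n = 4) and 34.3% ± 5.37 in vehicle mice (SD, n = 5). It was 23.2% ± 2.48 with PLX3397, 33.3% ± 5.96 with Anakinra and 20.5% ± 2.82 with both drugs (SD, n = 5 each). The values of vehicle mice did not overlap with those of sham, PLX3397 or both drugs, and overlapped with those of Anakinra. Ratios within a library do not depend on its scaling, but they move with either gene.

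**Figure D4:**
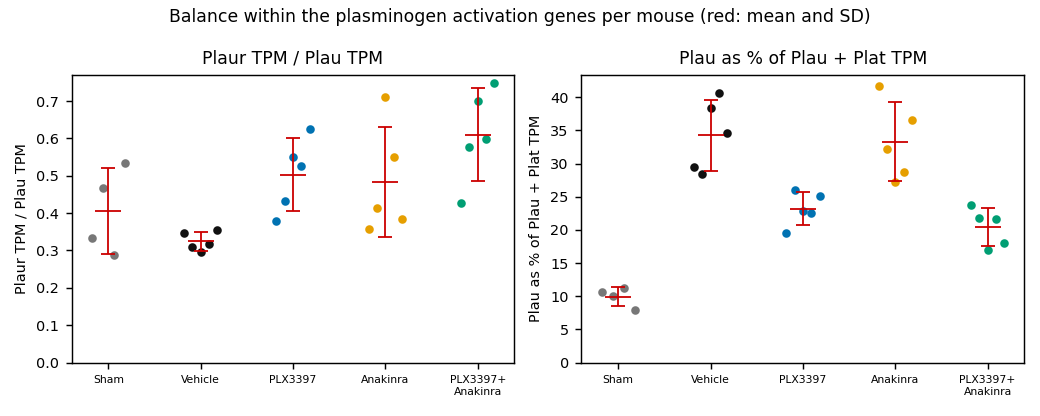
Left, the level of Plaur divided by that of Plau (a ratio of TPM), and right, Plau as % of the summed TPM of Plau and Plat, in every mouse of the 5 groups with mean and SD in red. The 5 vehicle mice lie between 0.295 and 0.355 on the left, under all drug-treated mice, and on the right both groups given PLX3397 lie below vehicle and above sham.

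A further 52 genes of the pathway were listed, of which 32 were expressed highly enough to be tested. Prothrombin, the fibrinogen chains, plasminogen, protein C and antithrombin, which the liver makes, were among the 20 that were not. Prothrombin (F2) reached at most 0.216 TPM in a library, and plasminogen (Plg) 0.197 TPM. The liver markers (Alb, Apoa2, Apob and others) summed to 1.89 to 4.69 TPM per library. By group Apoa2 averaged 2.44 to 3.57 TPM, and Alb and Apob at most 0.139 and 0.0768 TPM. In vehicle against sham, 20 of the 32 were higher and 4 lower, with a median difference of 0.54 (log2) against -0.01 over all genes, of which 27.7% were lower.

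The smallest adjusted p among the genes that rose belonged to 3 inhibitors or cofactors. A2m, which encodes a broad protease inhibitor that binds plasmin, went from 3.25 ± 0.564 TPM in sham (SD, n = 4) to 52.7 ± 16.1 TPM in vehicle (SD, n = 5; log2 3.62, adjusted p = 1.1e-15, limma). Pros1, for protein S, the cofactor of activated protein C, went from 11.3 to 45.1 TPM (log2 1.90, adjusted p = 1.1e-13, limma), and Serping1, for C1 inhibitor, from 10.6 to 35.6 TPM (log2 1.65, adjusted p = 4.2e-12, limma). Of the 4 lower in vehicle, 3 had the smallest adjusted p: Serpini1, for the neuronal inhibitor neuroserpin, with -0.62 (adjusted p = 1.5e-06, limma), Vkorc1l1 with -0.21 (adjusted p = 9.2e-04, limma) and Proz, for protein Z, with -0.35 (adjusted p = 0.0061, limma). The other was Eno1 (-0.09, adjusted p = 0.048, limma), for enolase, which also binds plasminogen.

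**Figure D5:**
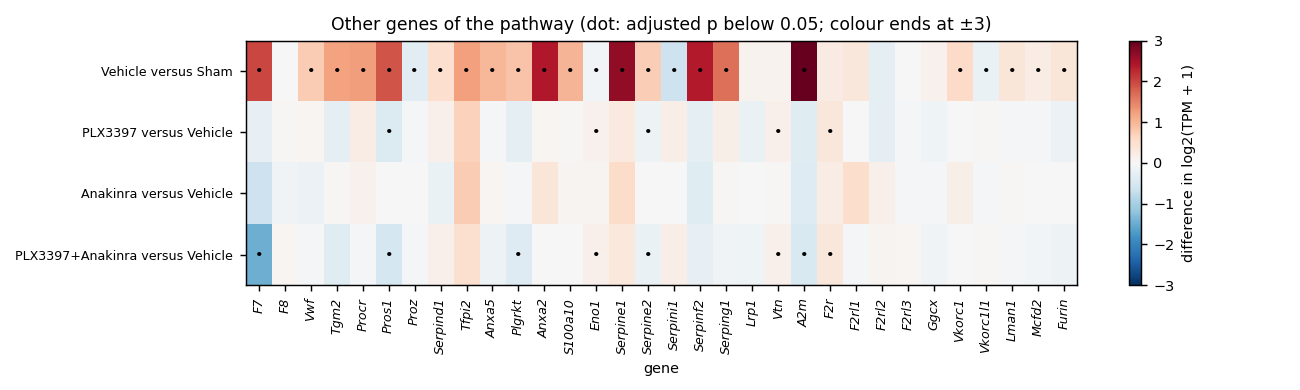
Difference in log2(TPM + 1) of the 32 tested further pathway genes (columns) in 4 comparisons, with colour ending at -3 (blue) and 3 (red) and a dot where the adjusted p was below 0.05. The rise from sham to vehicle spans 20 genes, whereas the drug comparisons with vehicle hold 5, 0 and 8 calls, led by the fall of F7 with both drugs.

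The drug effects on these genes were smaller in number. With PLX3397, Eno1 (0.12), Vtn (0.16) and F2r (0.35, adjusted p = 0.033, limma), the last encoding the thrombin receptor PAR-1, were higher than vehicle, and Pros1 (-0.42, adjusted p = 0.0061, limma) and Serpine2 (-0.15) were lower. Of all genes, 3.23% were higher and 6.66% lower in this comparison. Pros1 was called in all 24 fits that each left out 1 mouse, whereas Eno1 was called in 20, Vtn and F2r in 18 each and Serpine2 in 12. With only the compared groups in the fit, Pros1 alone of the 5 was called. With Anakinra 0 of 32 were called by limma and 7 had an unadjusted p below 0.05, against 0.116% and 12.4% of all genes. With both drugs 3 were higher and 5 lower (7.88% and 9.6% of all genes), and the same 3 symbols were those higher with PLX3397. Pros1 (-0.52, adjusted p = 3.9e-04, limma) and Serpine2 (-0.19, adjusted p = 0.0066, limma), for protease nexin 1, were lower again. With 1 mouse left out, F2r was called in 19 and Vtn in 18 of the 24 fits of this comparison, and Eno1, F7, Pros1 and Serpine2 in all. Median differences over the 32 genes were -0.02, 0.01 and -0.05 (log2) in these 3 comparisons, against 0.01, -0.02 and 0.01 over all genes.

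F7, for factor VII and next to F10 on chromosome 8 (13025506 to 13035809), gave the largest difference from vehicle in any drug group among the further genes tested. Sham mice were at 0 to 0.247 TPM. Vehicle mice had 3.61, 1.53, 5.51, 3.56 and 3.50 TPM, and mice given both drugs 0.315, 0.560, 0.701, 0.665 and 0.731 TPM, with no overlap (log2 -1.45 ± 0.18, SE, adjusted p = 1.5e-06, limma). F7 was also lower with both drugs than with PLX3397 (-1.21, adjusted p = 0.0014, limma) or Anakinra (-0.84, adjusted p = 0.0022, limma), and with the single drugs it was not called against vehicle (-0.25, adjusted p = 0.455, and -0.62, adjusted p = 0.141, limma). Its order of group means was that of F13a1 except that Anakinra, at 1.89 TPM, lay below PLX3397, at 2.71 TPM.

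The genes most like each of the 9 over the 24 libraries were found by Pearson's r of log2(TPM + 1), given as a description because the libraries share group means. F13a1 was most like Pf4 (r = 0.98, and 0.98 over the 20 injured libraries), AB124611 (0.97) and Mmp8 (0.97). Plau was most like Itpripl2, Stom and Mki67 (0.98 each), and Plaur like Tagln2, Cks1b and Tgfbi (0.98, 0.98 and 0.97), with r of 0.87 to 0.95 over the injured libraries for these 6. F10 was most like Slc44a2 (0.91), Cd300lb (0.90) and Lbh (0.90).

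F3 was most like Glipr2, Osmr and Acsbg1 (0.96 each), where r over the injured libraries alone was 0.46 to 0.50. Tfpi was most like Vcan (0.97), Tes (0.96) and Anxa2 (0.96), with 0.67 to 0.74 over the injured libraries. Thbd was most like Nid1 (0.89), Vcl (0.88) and Mmp2 (0.88), with 0.55 to 0.67. Plat was most like Rhoj (0.97), Nid1 and Angptl4 (0.96 each), with 0.77 to 0.86 over the injured libraries. F5 was most like Trpm3 (0.78), Kl (0.77) and Enpp2 (0.72), of which Kl is a choroid plexus marker, and the summed choroid plexus markers (Ttr, Folr1, Kl and others) averaged 3432 to 4026 TPM in the 5 groups. Ttr alone averaged 3301 to 3899.5 TPM and Folr1 17.3 to 20.6 TPM.

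Markers of macrophages were read beside F13a1 and Plau. The 10 markers of border and lesion macrophages summed to 24.3 TPM in sham, 540 TPM in vehicle, 277 TPM with PLX3397, 381 TPM with Anakinra and 137 TPM with both drugs, an order of means that F13a1 shared. Plau did not share it, with 26.2 TPM with Anakinra against 25.3 TPM in vehicle. Of the 10, 9 were lower with PLX3397 and 9 with both drugs than with vehicle, 4 were lower with both drugs than with PLX3397, and 0 were called with Anakinra against vehicle (limma, 4 with an unadjusted p below 0.05).

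The markers were not uniform, and Gpnmb alone averaged 293 TPM in vehicle. In vehicle against sham 8 were higher and 1 lower, and with both drugs against sham 5 were higher and 5 lower, with a median difference of 0.19 (log2). Mrc1 averaged 2.37 TPM in sham, 6.02 in vehicle, 0.987 with PLX3397, 6.02 with Anakinra and 0.678 with both. Cd163 averaged 1.15, 1.45, 0.305, 1.46 and 0.308 TPM in the same order and was not called between vehicle and sham. Lyve1 averaged 0.951, 0.526, 0.223, 0.849 and 0.330 TPM and was lower in vehicle than in sham (adjusted p = 0.024, limma). Pf4, the gene most like F13a1, averaged 3.66, 63.1, 30.6, 47.3 and 7.55 TPM. It encodes platelet factor 4, and it was listed with these markers and not with those of platelets. None of the 10 was at 0 in every library. The part of these cells in the change of F13a1 and Plau was not tested.

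The microglial markers, led by P2ry12, Tmem119 and Sall1, summed to 381 TPM in sham, 1788 TPM in vehicle, 774 TPM with PLX3397, 1744 TPM with Anakinra and 693 TPM with both. All 10 were lower with PLX3397 and with both drugs than with vehicle. Between both drugs and PLX3397, 0 of 10 were called (limma, 1 with an unadjusted p below 0.05), where 0.151% of all genes were called. Monocyte and neutrophil markers (Ccr2, Ly6c2, Chil3 and others) summed to 28.7, 135, 156, 191 and 142 TPM in sham, vehicle, PLX3397, Anakinra and both. Most of these sums came from other genes of the list than the 3 named. Ccr2, Ly6c2 and Chil3 averaged 2.23, 1.42 and 2.81 TPM in vehicle and 0.596, 0.964 and 0.971 TPM with both drugs. Of the 7 markers tested, 3 were lower and 0 higher with both drugs than with vehicle, with a median difference of -0.30 (log2), and 1 was lower than with PLX3397. Their part was not tested.

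Platelets also carry factor XIII A subunit. Their 8 markers (Ppbp, Itga2b, Gp9 and others), which leave out Pf4, summed to 24.7 ± 5.01 TPM in sham, 27.2 ± 3.41 in vehicle and 28.0 ± 1.07 with both drugs (SD, n = 4, 5 and 5). Of the 4 tested, 0 were called with PLX3397 or both drugs against vehicle (limma, 0 with an unadjusted p below 0.05). Most of these sums came from other genes of the list than the 3 named, and Gp9, Gp6, Treml1 and Tubb1 averaged under 0.5 TPM. Itga2b averaged 1.53 TPM in vehicle. Ppbp was higher in vehicle than in sham (0.966 against 0.159 TPM, adjusted p = 0.0062, limma). It averaged 0.748 TPM with PLX3397, 1.14 TPM with Anakinra and 0.498 TPM with both drugs. The last differed from vehicle by -0.36 (log2, adjusted p = 0.243, limma), which was not called. With both drugs against Anakinra, 0 of 4 were called and 2 had an unadjusted p below 0.05 (limma). Red blood cell markers (Hba-a1, Hba-a2, Hbb-bs and others) summed to 2665 TPM in sham, 3107 TPM in vehicle and 2784 TPM with Anakinra, and to 825 and 838 TPM in the groups given PLX3397. Their part in the results was not tested.

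Other marker sums were read beside F3, Plat, Thbd and Tfpi. Endothelial markers (Pecam1, Cdh5, Cldn5 and others) summed to 285 TPM in sham, 358 in vehicle, 373 with PLX3397, 343 with Anakinra and 354 with both. Of these 10, 7 were higher in vehicle than sham and 0 were called in any drug group against vehicle (limma, 1 to 2 with an unadjusted p below 0.05). Astrocyte markers (Aqp4, Gfap, Aldh1l1 and others) summed to 2322 TPM in sham and 4510 to 4878 TPM in the injured groups. Mural cell markers (Pdgfrb, Rgs5, Kcnj8 and others) summed to 120 TPM in sham and 150 to 185 TPM in the injured groups, and fibroblast markers (Col1a1, Col1a2, Col3a1 and others) to 65.4 TPM in sham, 454 in vehicle, 870 with PLX3397, 1089 with Anakinra and 906 with both. Neuronal markers (Rbfox3, Snap25, Syt1 and others) summed to 6184 TPM in sham and 3974 to 4586 TPM in the injured groups. The fibroblast sums of the vehicle mice spread widely, with an SD of 302 TPM (n = 5). The part of all these cell types in the change of F3, Plat, Thbd and Tfpi was not tested.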

How the data were processed

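RNA was sequenced from 24 mice, 1 library each (vehicle, PLX3397, Anakinra and PLX3397+Anakinra with 5 mice, sham with 4), grouped by the treatment in their labels. Per the labels, mRNA was enriched by poly(A) tails and read as pairs on an Illumina instrument. The authors mapped reads in CLC Genomics Workbench (version 21.0.5) to GRCm38 and deposited TPM, which by that name is scaled for gene length, to a sum of 1000000 per library. The methods also call the unit CPM. Strandedness is not given in the sources used here. Read counts were not used here, so the depth is unknown and precision rests on the spread between mice. A second deposited table rounds the same TPM values, and a filtered one adds the authors' own p-values and F values, which were not used.

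Testing was limited to the 17267 of 36333 genes that averaged 0.5 TPM or more. Values of log2(TPM + 1) were fitted with limma (version 3.58.1, R version 4.3.3), using 1 mean per group, all libraries in 1 fit, a variance trend, and Benjamini-Hochberg adjustment over all genes. On simulated data for both drugs against vehicle (10 draws of 17267 genes, 200 of them changed) the test found 99.3% of changes of 2-fold and 93.6% of 1.5-fold, and 4.72% of its calls were false. The changed genes were drawn from those with a mean log2(TPM + 1) above 2, and they were fewer than the 3018 called in the data. These shares are averages over genes of differing spread. They do not tell how often a change of a lower gene, or of a variable one such as F13a1 or Plaur, is found. Promoters, 250 bases before each start, came from RefSeq GRCm38.p6, and overlaps from GENCODE vM21.

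The members and the gene lists were chosen with earlier results of these data known. Named were all 9 members, up to 3 called pathway genes with the smallest adjusted p in each direction in vehicle against sham and the drug comparisons with vehicle, the 3 genes most like each member and the first 3 genes of each marker list. Other names, such as the untested F2 and Plg and the marker Pf4, were chosen after their values were seen. Alternatives were another pseudocount, other filters, median-ratio rescaling, the compared groups alone, no variance trend, the rounded table and leaving out each mouse.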

Additional observations from a re-analysis of the deposited data

Results flagged for a closer look

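Among 44 groups of 4 or 5 mice, 2 had 1 mouse far from the others by Dixon's criterion, and chance gives about 1 in 20. In the Anakinra group, mouse J05 had the highest F10 at 0.967 TPM, whereas the next mouse had 0.657 TPM and the lowest 0.548 TPM. In the PLX3397 group, mouse J19 had the lowest Thbd at 15.8 TPM, whereas the others lay between 19.1 and 20.1 TPM. Neither gene was called in the comparison of that group with vehicle.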

How the results depend on the processing

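For the 8 tested genes, all 560 differences under the 7 settings other than leaving out a mouse kept their side of the threshold, called ones also their direction. With 1 mouse left out, 1915 differences kept their side and 5 changed it: Plau with PLX3397 (3 fits), F13a1 with Anakinra and F5 in vehicle against sham, all given in the report, and none turned its direction. The number of members called against vehicle then ranged from 1 to 2 with PLX3397 and from 0 to 1 with Anakinra. Across the fits without 1 mouse, further pathway genes called ranged from 2 to 6 with PLX3397 (5 with all mice), 0 to 1 with Anakinra (1 without vehicle J17B), 5 to 8 with both drugs against vehicle (8 with all mice, 5 without vehicle J20B) and 3 to 7 with both against Anakinra (6 with all mice, 3 without Anakinra J21). The count with PLX3397 was lowest, 2, without vehicle J20B, PLX3397 J19 or PLX3397 J20, and it was 3 without the filter and 1 with only the compared groups in the fit. With both drugs against PLX3397, F7 was the 1 call, and the count was 0 with a filter at 5 TPM, under which F7 was not tested. Among named pathway genes, calls were lost without the filter (Eno1, F2r and Serpine2 with PLX3397, F2r and Vtn with both drugs), after rescaling (Vtn with PLX3397 and with both) and without the trend (Serpine2 with PLX3397, Vtn with both), and none turned its direction.

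Over all genes, counts moved by more than 1.5 times in 3 comparisons. Anakinra against vehicle had 20 calls, but 3 with a pseudocount of 0.1, 5 without the filter, 11 after rescaling, 2 with only the compared groups and 5 without the trend. Both drugs against PLX3397 had 26 calls, but 17 without the filter, 14 with the filter at 5 TPM and 9 with only the compared groups. PLX3397 against vehicle had 1707 calls (32.6% higher) and 998 (17.9% higher) with only the compared groups. With rescaling, 45.5% of the calls of Anakinra against vehicle were higher in place of 60%. The F10 fits without 1 mouse and the reading of each named pathway gene under all settings were added after the data were seen. The causes of these changes were not tested. With no read counts, no limit from depth can be given.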
